A study of Saccharomyces cerevisiae with 30 samples.

Results

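Described here are 10 yeast genes that encode the Snf1 protein kinase, the phosphatase that opposes it and the Mig repressors it acts on. They were taken by name from the rows of each expression table, and all 10 were found among the 6101 genes of each table. They are the catalytic subunit SNF1, the regulatory subunit SNF4, the beta subunits SIP1, SIP2 and GAL83, the phosphatase subunits REG1 and GLC7, and the repressors MIG1, MIG2 and MIG3. All 10 passed the filter on low values in both tables, a mean of at least 1 FPKM (fragments per kilobase of gene, scaled to the mapped fragments of the library).

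RNA was sequenced from whole cells of budding yeast, all in the haploid laboratory strain BY4741. The mutants carry altered subunits of SAGA, a transcriptional coactivator complex that acetylates histones: Ada3-3KR is an acetylation mutant of Ada3, Gcn5m a bromodomain mutant of Gcn5 and Spt7m a bromodomain mutant of Spt7. Cultures of 5 mL grew in YPD, which holds 2% glucose, at 28 °C and 300 rpm to an OD600 of 0.7, and were moved for 30 min to YP medium with 2% sucrose or with 2% glucose. The Ada3 set holds Ada3-3KR in sucrose, Ada3-3KR in glucose, WT in sucrose and WT in glucose. The bromodomain set holds Gcn5m, Spt7m and its own WT, each in sucrose and in glucose. Each of these 10 groups has 3 libraries, 30 in all, and the glucose groups were moved to fresh medium as well. How the alleles were built, how many clones were used and whether replicates were separate cultures were not stated, so each p-value rests on how far these libraries spread, which may be technical.

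Snf1 is the yeast AMP-activated protein kinase. When glucose is scarce it is phosphorylated by upstream kinases, Snf4 relieves its autoinhibition, and 1 of 3 beta subunits tethers the complex and sends it to the nucleus, the vacuole or the cytoplasm. When glucose is plentiful the phosphatase Glc7, brought by Reg1, keeps Snf1 inactive, and the zinc-finger repressor Mig1 sits in the nucleus with the Cyc8-Tup1 corepressor on genes such as SUC2, which encodes the invertase that splits sucrose. Mig2 and Mig3 are related repressors. These are controls of protein activity and location, which RNA levels do not measure.

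The 200 bases that end 101 bases before each repressor gene's start codon are shown because these 3 genes encode the repressors and each differed from WT in all 3 mutants in sucrose. They are on the gene's strand, in the R64 assembly, from the RefSeq genome of that build. Capitals mark 2 kinds of match, read on both strands: the GC box bound by Mig proteins, and a site of the repressor Rgt1. The GC box was searched as GCGGGG, as its variant CCGGGG, as the form GTGGGG found before MIG1 and MIG3, and as CTGGGG. The letters for Rgt1 were CGGANNA. The MIG1 stretch lies at chrVII:433163-433362 on the minus strand, the MIG2 stretch at chrVII:95558-95757 on the plus strand and the MIG3 stretch at chrV:211977-212176 on the minus strand.
MIG1: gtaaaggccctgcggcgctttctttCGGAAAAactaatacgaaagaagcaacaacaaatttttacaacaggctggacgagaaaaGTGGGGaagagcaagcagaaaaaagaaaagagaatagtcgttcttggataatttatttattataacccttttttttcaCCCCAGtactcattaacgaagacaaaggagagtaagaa
MIG2: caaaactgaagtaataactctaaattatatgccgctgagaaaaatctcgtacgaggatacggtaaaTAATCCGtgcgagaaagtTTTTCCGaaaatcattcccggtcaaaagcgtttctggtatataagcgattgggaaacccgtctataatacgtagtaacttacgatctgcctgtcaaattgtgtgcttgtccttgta
MIG3: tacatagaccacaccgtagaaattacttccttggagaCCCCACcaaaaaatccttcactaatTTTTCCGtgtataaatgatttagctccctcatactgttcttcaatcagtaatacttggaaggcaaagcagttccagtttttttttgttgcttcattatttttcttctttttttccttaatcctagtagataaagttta

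Counting back from the start codon, MIG1 had GTGGGG at 216 to 211 and CCCCAG, a box on the other strand, at 138 to 133, besides CGGAAAA at 275 to 269. The MIG2 stretch held no GC box but carried TAATCCG at 234 to 228 and TTTTCCG at 216 to 210, both Rgt1 matches on the other strand. MIG3 had CCCCAC at 263 to 258 and TTTTCCG at 238 to 232. In the 300 bases before the start codon, the only other matches among the 10 genes were CTGGGG at 48 to 43 before GLC7 and TCATCCG at 282 to 276 before GAL83. Of 6001 windows of that length before protein-coding genes, 12% held a GC box and 26.9% an Rgt1 match. A match describes the letters only.

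Position also links the family. SIP2 (chrVII:97338-98585, plus strand) starts 331 bases after MIG2 (chrVII:95858-97006, plus strand), and GAL83 (chrV:208979-210232, minus strand) starts 459 bases after MIG3 (chrV:210692-211876, minus strand), so each pair runs in tandem. SIP2 and GAL83 are paralogs kept from the ancient whole-genome duplication, as are MIG2 and MIG3. MIG1 lies at chrVII:431548-433062 on the minus strand. YGL034C, an annotated gene on the same strand, lies 151 bases upstream of MIG1. The MIG1 stretch printed above runs past that gap into YGL034C, while its CCCCAG at 138 to 133 falls within the gap. No member overlaps another annotated gene, and none has a near-identical copy elsewhere in the genome. GLC7 alone has 2 coding exons. How reads were assigned by strand was not given in the sources used here.

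Levels per length were compared as FPKM. GLC7, the catalytic phosphatase subunit shared by many processes, had 203 to 241 FPKM over the 12 libraries of the Ada3 set and 204 to 295 FPKM over the 18 of the bromodomain set. SNF4 came next with 82.0 to 99.0 and 78.9 to 102 FPKM, overlapped in the bromodomain set by MIG1. SNF1, SIP2, GAL83, REG1 and MIG1 followed at 32.3 to 78.8 FPKM in the Ada3 set, where MIG1 overlapped each of the other 4. SIP1 and MIG2 overlapped at 17.6 to 24.9 and 16.2 to 26.8 FPKM in the Ada3 set, and MIG3 was lowest at 2.87 to 7.34 FPKM there and 6.88 to 15.8 FPKM in the bromodomain set. Between group means, MIG1 and MIG3 each ranged by 2.29 times in the Ada3 set, and MIG1 by 2.32 times and MIG3 by 1.97 times in the bromodomain set, while GLC7 (1.06 times) and REG1 (1.1 times) ranged least in the Ada3 set.

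**Figure D1:**
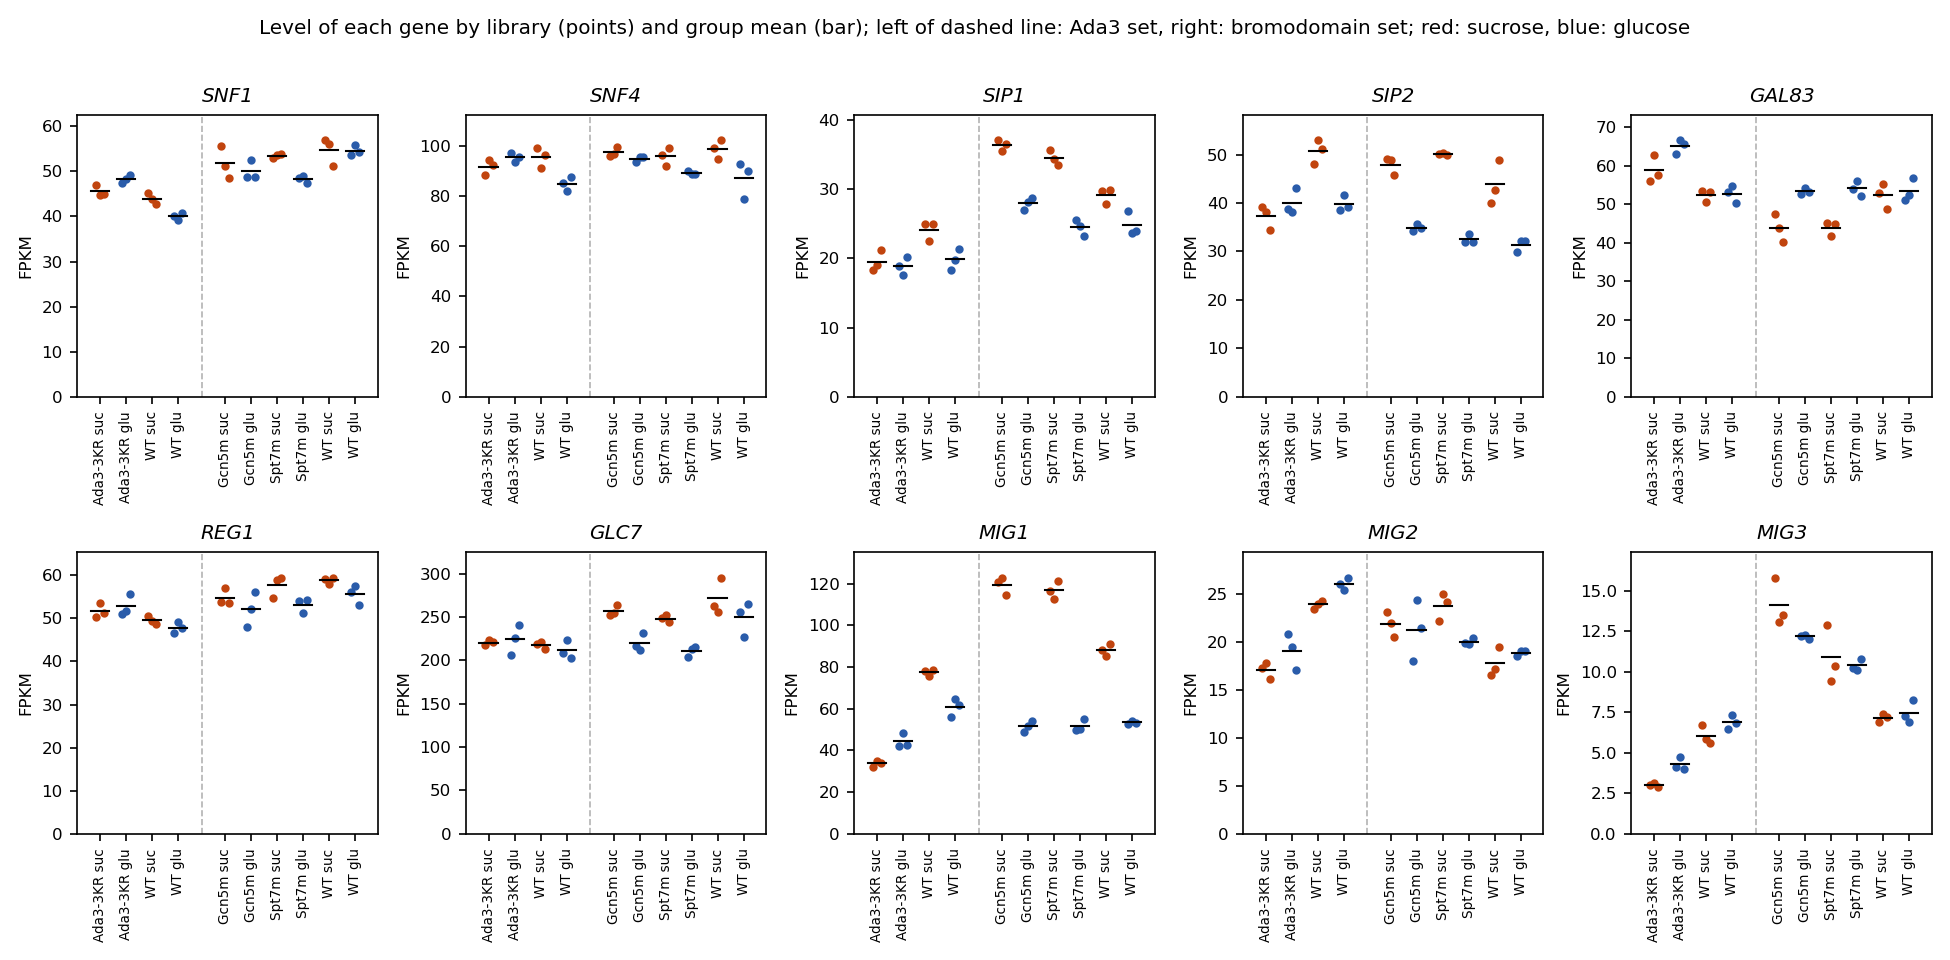
FPKM of each of the 10 genes in every library (points) with the group mean (bar), sucrose in red and glucose in blue, each mutant left of its WT; the dashed line separates the Ada3 set from the bromodomain set, which were not tested against each other. MIG1 is lowest in Ada3-3KR in sucrose (32.3 to 35.1 FPKM) and highest in Gcn5m and Spt7m in sucrose (113 to 123 FPKM), while the group means of REG1 differ by 1.1 times within the Ada3 set and 1.13 times within the bromodomain set.

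Library totals and labels were checked first. Summed FPKM was 1223881 to 1288949 in the Ada3 set and 1152780 to 1283727 in the bromodomain set, and libraries of a group correlated at r of at least 0.992 across genes. Read depth is unknown, since counts were not used here. The 5 a-specific genes were high (each at least 94.1 FPKM) and the pheromone gene MF(ALPHA)1 was at most 1.16 FPKM. Of the other alpha-specific genes, STE3 had 0.732 to 3.99 FPKM, MF(ALPHA)2 had 6.57 to 13 FPKM and SAG1 had 16.2 to 31.7 FPKM; all 4 summed to at most 45 FPKM in a library. BY4741 is of the a mating type. LEU2 and MET17, deleted in BY4741, were at or near 0, while HIS3, which keeps part of its gene there, had 56.8 to 154 FPKM. URA3, an auxotrophic marker deleted in BY4741, had 223 to 444 FPKM in Gcn5m and 7079 to 11463 FPKM in Spt7m, against at most 2.3 FPKM in their WT. The labels do not mention URA3, and its part in any difference between these mutants and WT cannot be told apart from the mutation.

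Tests were made on log2(FPKM + 1) with limma across all genes of a set, and a called gene has an adjusted p under 0.05 (Benjamini-Hochberg, over the 5830 or 5841 genes tested). Changes are on that scale, with the standard error after ±, for 3 libraries a group. Calls were common in both sets, so a count of members means little without the share of all genes. In Ada3-3KR, sucrose against glucose called 3 of 10 members, beside 50.7% of all genes, and 5 of 10 in the WT of that set, beside 46.6%. Ada3-3KR against WT called 7 of 10 in glucose, beside 62.2%, and 6 of 10 in sucrose, beside 55.9%. The difference between both sugar responses called 4 of 10, beside 38.8%. In the bromodomain set, sucrose against glucose called 5 of 10 in Gcn5m, 7 of 10 in Spt7m and 4 of 10 in WT, beside 74%, 76% and 66.7% of all genes. Against WT, Gcn5m called 6 of 10 in glucose (all genes 62%) and 5 of 10 in sucrose (70.6%), and Spt7m called 3 of 10 in glucose (53.2%) and 6 of 10 in sucrose (70.3%). The sugar response differed from that of WT for 2 of 10 members in Gcn5m (all genes 41.6%) and for 4 of 10 in Spt7m (47.5%). Gcn5m against Spt7m called 1 of 10 in glucose and 1 of 10 in sucrose, beside 27.7% and 19.7%. With libraries as deposited, the 10 genes as a group were called near or below the share of all genes, and the results are in single members. These member counts shifted with the scaling of the libraries, and those under other scalings are given in the closing section. Groups without overlap were common as well, so separation alone does not mark a member. With sucrose against glucose, 59.5% of all genes tested did not overlap in Ada3-3KR and 54.1% in its WT. In Gcn5m, Spt7m and their WT it was 75.4%, 78.7% and 69.1%. Against WT it was 66.1% in glucose and 61.9% in sucrose for Ada3-3KR. For Gcn5m it was 63.4% and 73.5%, and for Spt7m 61.1% and 72.7%.

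The scale of the libraries matters for the small changes. In the bromodomain set the median change of all genes with sucrose was 0.20 in Gcn5m, 0.19 in Spt7m and 0.17 in WT on the log2 scale, and became -0.05, -0.07 and -0.07 when libraries were set to the same median. In the Ada3 set it was 0.06 in Ada3-3KR and 0.08 in WT, and became -0.01 and -0.04. Of the genes called with sucrose, 65.0% were higher in Ada3-3KR and 70.2% in its WT, and 70.5% in Gcn5m, 67.9% in Spt7m and 76.4% in their WT. Those shares became 48.3%, 37.2%, 43.0%, 43.6% and 37.5% in the same order of strains. Values after this rescaling are given below as rescaled values. In such bulk RNA, fewer cells with a transcript and less of it per cell cannot be told apart.

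MIG1, the main glucose repressor, had the largest single changes among the members, up to 1.20 with sucrose in Gcn5m. MIG3 differed more than MIG1 from WT in Gcn5m and Spt7m in either medium, and in Ada3-3KR in glucose. With sucrose, MIG1 changed in opposite directions in Ada3-3KR and WT. In Ada3-3KR, MIG1 had 32.3, 35.1 and 34.1 FPKM in sucrose, against 42.2, 48.2 and 42.7 FPKM in glucose. WT cells of the same set had 78.0, 75.7 and 78.8 FPKM in sucrose, against 56.2, 64.6 and 61.6 FPKM in glucose. No 2 of these 4 groups overlapped, and Ada3-3KR was below WT in either medium. MIG1 fell with sucrose in Ada3-3KR (-0.38 ± 0.06, adjusted p = 0.000139) and rose in WT by 0.35 ± 0.06 (adjusted p = 0.000374), or -0.45 and 0.22 rescaled. Against WT, the difference of Ada3-3KR was -0.45 ± 0.06 in glucose (adjusted p = 2.23e-05) and -1.17 ± 0.06 in sucrose (adjusted p = 2.1e-09). The difference between the responses, Ada3-3KR minus WT, was -0.73 ± 0.09 (adjusted p = 1.76e-05).

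The bromodomain mutants moved MIG1 the other way. Gcn5m had 121, 123 and 114 FPKM in sucrose, against 48.8, 51.7 and 54.3 FPKM in glucose. In Spt7m the values were 117, 113 and 121 FPKM in sucrose, against 49.9, 50.3 and 55.2 FPKM in glucose. The WT of this set had 88.1, 85.1 and 90.9 FPKM in sucrose, against 52.8, 54.4 and 53.4 FPKM in glucose. Every mutant library in sucrose was above every WT library in sucrose, while the 3 strains overlapped in glucose. Of all genes tested, 73.5% in Gcn5m and 72.7% in Spt7m did not overlap WT in sucrose. The rise with sucrose was 1.20 ± 0.05 in Gcn5m (adjusted p = 2.79e-13), 1.16 ± 0.05 in Spt7m (adjusted p = 3.85e-13) and 0.71 ± 0.05 in WT (adjusted p = 9.72e-10), or 0.94, 0.89 and 0.45 rescaled. The response exceeded that of WT by 0.49 ± 0.07 in Gcn5m (adjusted p = 2.79e-05) and by 0.45 ± 0.07 in Spt7m (adjusted p = 4.4e-05). In sucrose the mutants stood above WT by 0.44 ± 0.05 (Gcn5m, adjusted p = 4.35e-07) and 0.41 ± 0.05 (Spt7m, adjusted p = 1.11e-06). In glucose the differences were -0.05 ± 0.05 for both, with 95% intervals of -0.16 to 0.05 for Gcn5m and -0.15 to 0.06 for Spt7m. Rescaled, these uncalled differences turned to 0.03 and 0.04. No MIG1 comparison changed its side of the threshold under any alternative run, and no called one changed its direction.

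MIG2, which shares many targets with Mig1, was lower in Ada3-3KR than in WT by nearly the same step in either medium. It had 17.3, 17.8 and 16.2 FPKM in Ada3-3KR in sucrose, against 23.5, 24.1 and 24.3 FPKM in WT in sucrose. In glucose Ada3-3KR had 20.9, 19.5 and 17.1 FPKM, against 26.1, 25.5 and 26.8 FPKM in WT. Ada3-3KR did not overlap WT in either medium, and the differences were -0.46 ± 0.07 in sucrose (adjusted p = 4.73e-05) and -0.43 ± 0.07 in glucose (adjusted p = 6.8e-05). The responses to sucrose differed between the strains by -0.03 ± 0.09, with a 95% interval of -0.23 to 0.17. MIG2 itself changed with sucrose by -0.15 ± 0.07 in Ada3-3KR (adjusted p = 0.0757) and -0.12 ± 0.07 in WT (adjusted p = 0.165). These were called when rescaled (-0.22 and -0.24), and the first was -0.23 (adjusted p = 0.00715) without Ada3-3KR in glucose replicate 3.

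MIG2 stood higher in both bromodomain mutants in sucrose. Gcn5m had 23.2, 22.0 and 20.6 FPKM, Spt7m 22.2, 25.1 and 24.2 FPKM, and WT 16.6, 17.3 and 19.6 FPKM. Each mutant was above all WT libraries, by 0.29 ± 0.09 in Gcn5m (adjusted p = 0.00583) and 0.40 ± 0.09 in Spt7m (adjusted p = 0.000408). In glucose, Gcn5m had 18.02 to 24.45 FPKM, Spt7m 19.8 to 20.5 FPKM and WT 18.6 to 19.1 FPKM, and neither mutant was called, though Gcn5m was called when rescaled (0.23, adjusted p = 0.0161), after quantile normalization (0.26, adjusted p = 0.0101) and without its replicate 1 (0.26, adjusted p = 0.00695). MIG2 rose with sucrose in Spt7m by 0.24 ± 0.09 (adjusted p = 0.0183), but this became -0.02 rescaled, and 0.20 (adjusted p = 0.072) without Spt7m in sucrose replicate 2. In WT the change with sucrose was -0.09 ± 0.09 (adjusted p = 0.381). It was called when rescaled (-0.33, adjusted p = 0.00139) and after quantile normalization (-0.34, adjusted p = 0.0013). The response exceeded that of WT by 0.32 ± 0.12 in Spt7m (adjusted p = 0.0351). That call was lost on leaving out any 1 of 8 libraries (in sucrose Spt7m replicates 2 and 3 and WT replicates 1 and 2, in glucose Spt7m replicates 1 and 2 and WT replicates 2 and 3), with values of 0.28 to 0.32 and adjusted p of 0.0581 to 0.0883.

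MIG3, the lowest of the 3 repressors, differed from WT in every mutant and in either medium. Ada3-3KR had 3.03, 3.13 and 2.87 FPKM in sucrose, against 6.696, 5.87 and 5.59 FPKM in WT in sucrose. In glucose it had 4.104, 4.74 and 4.04 FPKM, against 6.504, 7.34 and 6.82 FPKM in WT. Ada3-3KR was lower in both, with differences of -0.81 ± 0.09 in sucrose (adjusted p = 3.68e-06) and -0.58 ± 0.09 in glucose (adjusted p = 6.56e-05). Sucrose against glucose gave -0.40 ± 0.09 in Ada3-3KR (adjusted p = 0.00188) and -0.16 ± 0.09 in WT (adjusted p = 0.148), and these responses differed by -0.24 ± 0.12 (adjusted p = 0.156). Rescaled, the WT fall was -0.27 (adjusted p = 0.0151).

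Both bromodomain mutants had more MIG3 than WT. Gcn5m had 15.8, 13.1 and 13.5 FPKM in sucrose and 12.3, 12.3 and 12.1 FPKM in glucose. Spt7m had 12.9, 9.41 and 10.4 FPKM in sucrose and 10.3, 10.1 and 10.8 FPKM in glucose. WT had 6.88, 7.41 and 7.24 FPKM in sucrose and 7.26, 6.91 and 8.25 FPKM in glucose. All mutant libraries were above all WT libraries. The differences in sucrose were 0.88 ± 0.09 in Gcn5m (adjusted p = 1.62e-07) and 0.53 ± 0.09 in Spt7m (adjusted p = 6.96e-05). In glucose they were 0.64 ± 0.09 (Gcn5m, adjusted p = 1.18e-05) and 0.43 ± 0.09 (Spt7m, adjusted p = 0.000927). Sucrose against glucose gave -0.05 ± 0.09 in WT (adjusted p = 0.658). This WT change was called when rescaled (-0.27, adjusted p = 0.0166) and after quantile normalization (-0.22, adjusted p = 0.0455), while neither mutant was called with sucrose before or after rescaling. Gcn5m exceeded Spt7m in sucrose by 0.35 ± 0.09 (adjusted p = 0.0125). That call was lost without Gcn5m replicate 1 (0.27, adjusted p = 0.0749), Spt7m replicate 2 (0.26, adjusted p = 0.0742) or Spt7m replicate 3 (0.33, adjusted p = 0.0567).

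**Figure D2:**
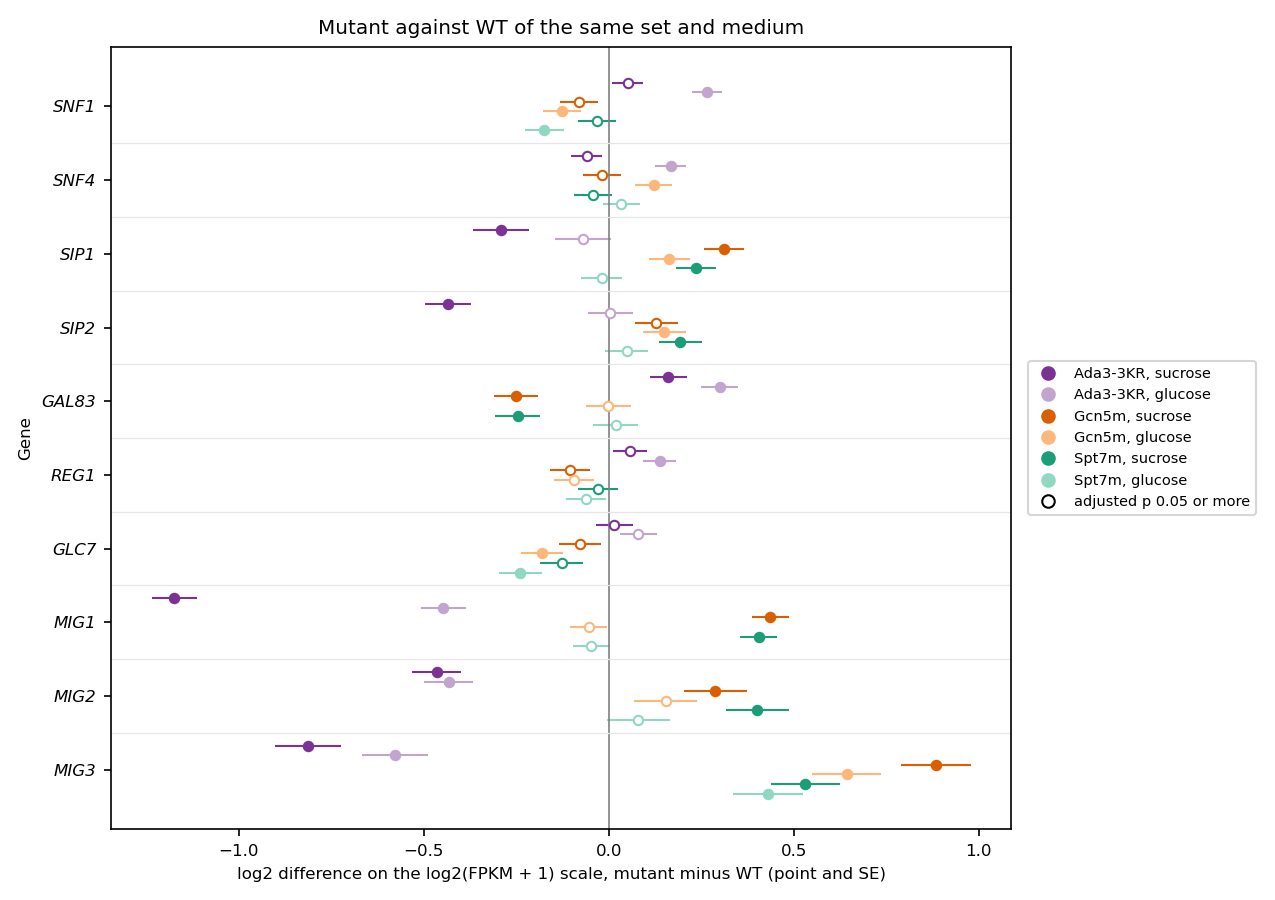
Difference between each mutant and the WT of its set in the same medium (log2 scale, point and standard error) for the 10 genes; filled points have an adjusted p under 0.05. MIG1, MIG2 and MIG3 lie left of 0 in Ada3-3KR in sucrose (-1.17, -0.46 and -0.81) and right of 0 in Gcn5m and Spt7m in sucrose (0.29 to 0.88).

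As shares of their summed FPKM, MIG1 made up 62.7 ± 1.4% of the 3 repressor transcripts in Ada3-3KR in sucrose, against 65.4 ± 2.26% in glucose (SD, n = 3 each). In the WT of that set it was 72.1 ± 0.4% in sucrose, against 64.8 ± 1.5% in glucose. In sucrose the share was 76.8 ± 1.11% in Gcn5m, 77.1 ± 0.624% in Spt7m and 77.9 ± 0.907% in their WT, against 60.6 ± 1.93%, 62.9 ± 0.777% and 67.0 ± 0.808% in glucose (SD, n = 3 each). In sucrose the MIG1 share of the mutants differed from that of WT by -1.07 (Gcn5m) and -0.767 (Spt7m) percentage points, with an exact permutation p of 0.4 for each. The sum of the 3 transcripts there was 156 ± 6.14 FPKM in Gcn5m, 152 ± 4.4 FPKM in Spt7m and 113 ± 4.14 FPKM in WT. The sum was 53.9 ± 1.79 FPKM in Ada3-3KR in sucrose, against 108 ± 1.7 FPKM in its WT (SD, n = 3 each). A common factor per library cancels in such shares and ratios.

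The beta subunits decide where the kinase complex goes: Gal83 to the nucleus, Sip1 to the vacuole, and Sip2 stays in the cytoplasm. SIP2 had 39.2, 38.2 and 34.5 FPKM in Ada3-3KR in sucrose, against 38.7, 38.2 and 43.1 FPKM in glucose. In WT it had 48.1, 52.9 and 51.1 FPKM in sucrose, against 38.7, 41.6 and 39.2 FPKM in glucose. Sucrose and glucose overlapped in Ada3-3KR and not in WT, and Ada3-3KR in sucrose was also below WT in sucrose. The change with sucrose was -0.10 ± 0.06 in Ada3-3KR (adjusted p = 0.206) and 0.34 ± 0.06 in WT (adjusted p = 0.000504), or -0.17 (adjusted p = 0.0341) and 0.22 rescaled. The responses differed by -0.44 ± 0.09 (adjusted p = 0.00128). Ada3-3KR was lower than WT in sucrose, at -0.43 ± 0.06 (adjusted p = 4.57e-05), and the difference in glucose was 0.00 ± 0.06, with a 95% interval of -0.13 to 0.14.

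SIP2 rose with sucrose in Gcn5m, Spt7m and the WT of their set. Gcn5m had 49.1, 48.9 and 45.8 FPKM in sucrose, against 34.1, 35.7 and 34.9 FPKM in glucose. Spt7m had 50.03, 50.39 and 49.98 FPKM in sucrose, against 32.0, 33.5 and 32.0 FPKM in glucose. WT had 40.1, 42.7 and 48.8 FPKM in sucrose, against 29.9, 32.1 and 32.1 FPKM in glucose. No sucrose library overlapped a glucose library of its strain. The rise was 0.45 ± 0.06 in Gcn5m (adjusted p = 1.9e-06), 0.61 ± 0.06 in Spt7m (adjusted p = 2.79e-08) and 0.47 ± 0.06 in WT (adjusted p = 1.68e-06), or 0.19, 0.35 and 0.22 rescaled. The responses of the mutants differed from that of WT by -0.02 ± 0.08 in Gcn5m (adjusted p = 0.864) and 0.14 ± 0.08 in Spt7m (adjusted p = 0.162, and 0.22 with adjusted p = 0.0128 without WT in sucrose replicate 3). Spt7m was above WT in sucrose by 0.19 ± 0.06 (adjusted p = 0.00679), a call lost without WT replicate 1 (0.13, adjusted p = 0.0541). Gcn5m had 0.13 ± 0.06 there (adjusted p = 0.0564). It was called when rescaled (0.20, adjusted p = 0.00366), after quantile normalization (0.19, adjusted p = 0.00512), and without WT replicate 3 (0.21, adjusted p = 0.00168) or Gcn5m replicate 3 (0.16, adjusted p = 0.0368). In glucose Gcn5m was above WT by 0.15 ± 0.06 (adjusted p = 0.0328), lost without Gcn5m replicate 2 (0.13, adjusted p = 0.0934) or 3 (0.15, adjusted p = 0.0626) or WT replicate 1 (0.12, adjusted p = 0.131).

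GAL83 stood above WT in Ada3-3KR in either medium. In Ada3-3KR it had 56.1, 62.7 and 57.5 FPKM in sucrose and 63.1, 66.5 and 65.6 FPKM in glucose. WT had 53.5, 50.6 and 53.1 FPKM in sucrose and 53.1, 54.8 and 50.2 FPKM in glucose. All Ada3-3KR libraries were above all WT libraries. The difference was 0.30 ± 0.05 in glucose (adjusted p = 0.00014) and 0.16 ± 0.05 in sucrose (adjusted p = 0.0137). The call in sucrose was lost without replicate 2 of Ada3-3KR (0.12, adjusted p = 0.0726) or of WT (0.14, adjusted p = 0.0552). In Ada3-3KR the change with sucrose was -0.15 ± 0.05 (adjusted p = 0.0254), lost when replicate 1 or 3 in sucrose or replicate 2 or 3 in glucose was left out (-0.11 to -0.14, adjusted p of 0.0631 to 0.104). In WT it was -0.01 ± 0.05, or -0.13 rescaled (adjusted p = 0.0219). The responses differed by -0.14 ± 0.07 (adjusted p = 0.14), and by -0.19 (adjusted p = 0.0483) when the sucrose library of Ada3-3KR replicate 2 was left out.

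Gcn5m had 47.4, 43.9 and 40.3 FPKM of GAL83 in sucrose, against 52.7, 54.1 and 53.2 FPKM in glucose. Spt7m had 45.2, 41.8 and 44.9 FPKM in sucrose, against 54.1, 56.1 and 52.2 FPKM in glucose. The WT of this set had 52.8, 55.3 and 48.8 FPKM in sucrose, against 51.1, 52.5 and 56.7 FPKM in glucose. The mutants in sucrose stood apart from every other group of the set. GAL83 fell with sucrose in Gcn5m (-0.28 ± 0.06, adjusted p = 0.000441) and in Spt7m (-0.30 ± 0.06, adjusted p = 0.000248), while WT had -0.03 ± 0.06 (adjusted p = 0.667). Rescaled, the 3 changes were -0.54, -0.56 and -0.28, all called. The responses differed from that of WT by -0.25 ± 0.09 in Gcn5m (adjusted p = 0.0266) and -0.26 ± 0.09 in Spt7m (adjusted p = 0.0163). The Gcn5m difference was lost without Gcn5m replicate 2 in glucose or 3 in sucrose, or WT replicate 1 or 2 in either medium (-0.19 to -0.24, adjusted p of 0.0508 to 0.0776). In sucrose both mutants were below WT, with differences of -0.25 ± 0.06 (adjusted p = 0.00125 in Gcn5m and 0.00152 in Spt7m).

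SIP1 was the least abundant beta subunit. It had 18.3, 19.1 and 21.2 FPKM in Ada3-3KR in sucrose and 18.9, 17.6 and 20.2 FPKM in glucose. In WT the values were 24.9, 22.4 and 24.9 FPKM in sucrose and 18.3, 19.8 and 21.4 FPKM in glucose. WT in sucrose was above the other 3 groups. Ada3-3KR was below WT in sucrose, at -0.29 ± 0.08 (adjusted p = 0.0051). The change with sucrose was 0.05 ± 0.08 in Ada3-3KR (adjusted p = 0.639) and 0.27 ± 0.08 in WT (adjusted p = 0.0106), the WT value at 0.15 (adjusted p = 0.115) rescaled and 0.21 (adjusted p = 0.0531) without WT in glucose replicate 1. The responses differed by -0.22 ± 0.11 (adjusted p = 0.12).

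In Gcn5m SIP1 had 37.0, 35.5 and 36.6 FPKM in sucrose, against 27.0, 28.1 and 28.7 FPKM in glucose. In Spt7m it had 35.6, 34.3 and 33.5 FPKM in sucrose, against 25.5, 24.6 and 23.3 FPKM in glucose. WT had 29.7, 27.8 and 29.9 FPKM in sucrose, against 26.8, 23.7 and 24.0 FPKM in glucose. The mutants in sucrose were above every other library. The change with sucrose was 0.37 ± 0.05 in Gcn5m (adjusted p = 7.68e-06), 0.48 ± 0.05 in Spt7m (adjusted p = 2.92e-07) and 0.22 ± 0.05 in WT (adjusted p = 0.00165), but 0.12, 0.22 and -0.03 rescaled, so that the WT direction flipped. After quantile normalization the Gcn5m change was 0.11 (adjusted p = 0.0585). Spt7m exceeded WT in this response by 0.26 ± 0.08 (adjusted p = 0.0106) and Gcn5m by 0.15 ± 0.08 (adjusted p = 0.133). In sucrose SIP1 was higher than in WT by 0.31 ± 0.05 in Gcn5m (adjusted p = 5.73e-05) and 0.24 ± 0.05 in Spt7m (adjusted p = 0.000848). In glucose Gcn5m exceeded WT by 0.16 ± 0.05 (adjusted p = 0.0141), lost without Gcn5m replicate 3 (0.15, adjusted p = 0.05), WT replicate 2 (0.13, adjusted p = 0.0658) or WT replicate 3 (0.14, adjusted p = 0.0605). It exceeded Spt7m there by 0.18 ± 0.05 (adjusted p = 0.0178), lost without Gcn5m replicate 2 (0.18, adjusted p = 0.0501) or 3 (0.17, adjusted p = 0.0609) or Spt7m replicate 3 (0.15, adjusted p = 0.0867).

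**Figure D3:**
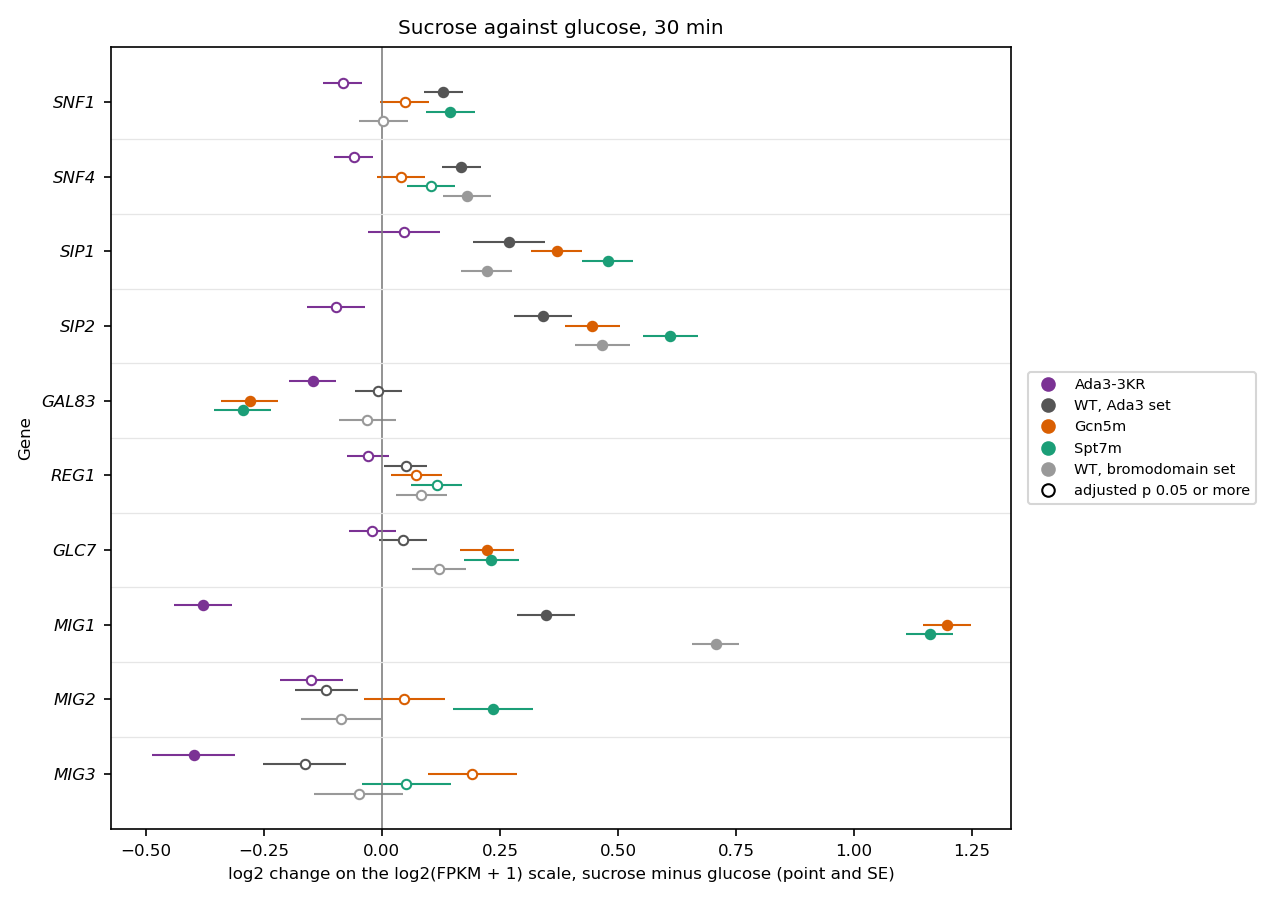
Change with sucrose against glucose in each strain (log2 scale, point and standard error) for the 10 genes; filled points have an adjusted p under 0.05. MIG1 spans -0.38 in Ada3-3KR to 1.20 in Gcn5m. Some small positive values become negative when libraries are set to the same median. In the bromodomain set these are SNF1, SNF4, REG1 and GLC7 in all strains, MIG2 and MIG3 in Gcn5m and Spt7m, and SIP1 in WT. In the Ada3 set they are REG1 and GLC7 in WT and SIP1 in Ada3-3KR.

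The makeup of the beta transcripts was read as ratios and shares. SIP2 over GAL83, as a ratio of FPKM, was 0.636 ± 0.0536 in Ada3-3KR in sucrose, against 0.615 ± 0.0415 in glucose, and 0.971 ± 0.0753 in WT in sucrose, against 0.756 ± 0.0257 in glucose (SD, n = 3 each). Among the bromodomain strains it was 1.1 ± 0.0529 in Gcn5m, 1.14 ± 0.0577 in Spt7m and 0.844 ± 0.135 in WT in sucrose, against 0.655 ± 0.00611, 0.6 ± 0.0114 and 0.588 ± 0.0231 in glucose (SD, n = 3 each). The ratio was above 1 in all libraries of both mutants in sucrose. GAL83 fell to 34.2 ± 1.3% of the beta sum in Gcn5m and 34.2 ± 1.04% in Spt7m in sucrose, against 41.8 ± 3.06% in WT in sucrose (SD, n = 3 each). In Ada3-3KR it was 50.8 ± 1.45% in sucrose and 52.5 ± 1.76% in glucose, against 41.2 ± 1.05% and 46.9 ± 1.46% in WT (SD, n = 3 each). An exact two-sided permutation test of 3 libraries against 3 cannot go below p = 0.1. That value was reached for the ratio with sucrose in WT of both sets, Gcn5m and Spt7m, and p was 0.7 in Ada3-3KR by the same exact test. Over the 39 such tests of 3 quantities, the smallest adjusted p was 0.139.

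**Figure D4:**
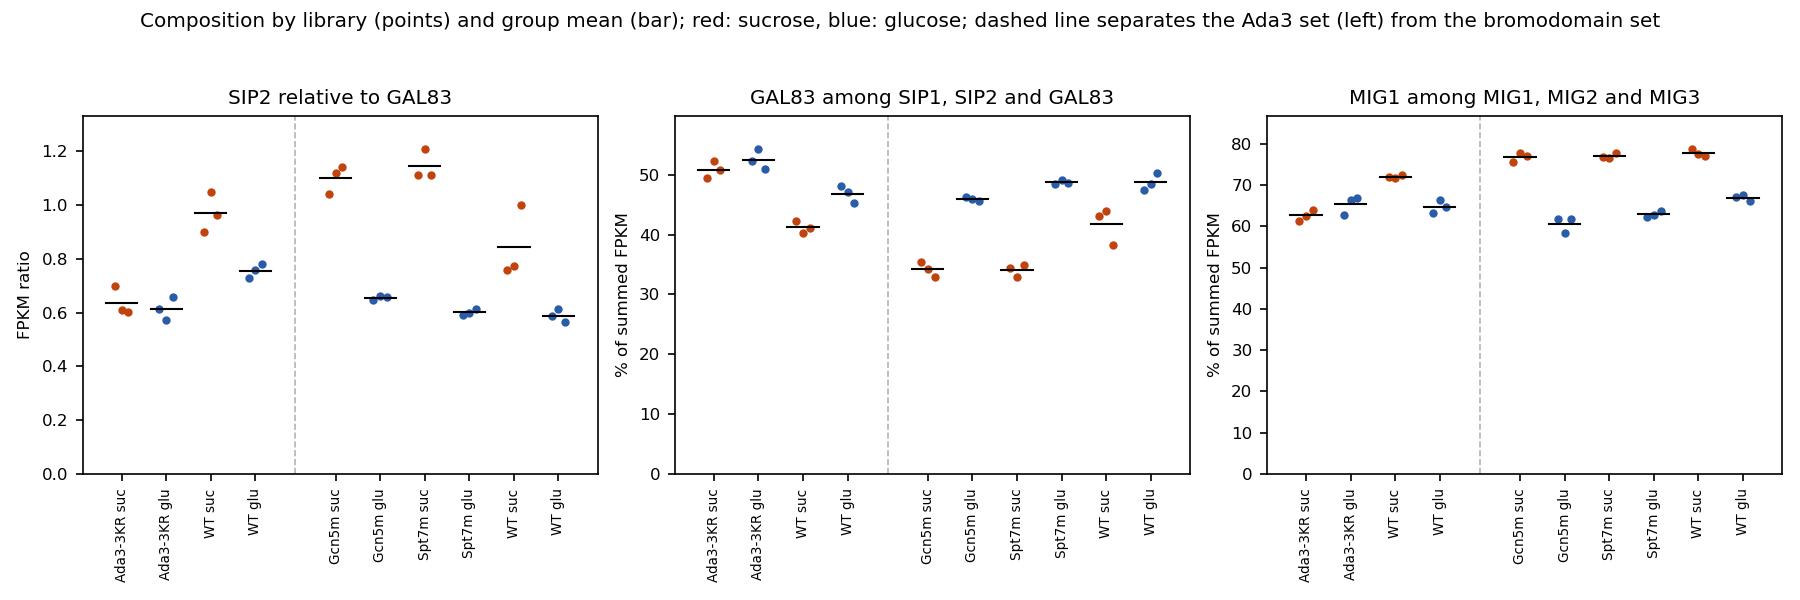
SIP2 over GAL83, GAL83 as a percentage of the 3 beta subunit transcripts, and MIG1 as a percentage of the 3 MIG transcripts, in every library (points) with the group mean (bar), sucrose in red and glucose in blue, each mutant left of its WT. Gcn5m and Spt7m in sucrose have SIP2 over GAL83 of at least 1.04, against at most 0.66 in glucose; Ada3-3KR stays between 0.574 and 0.698.

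SNF1, the catalytic subunit, had 44.7 to 47.0 FPKM in Ada3-3KR in sucrose, 47.3 to 49.2 FPKM in Ada3-3KR in glucose, 42.8 to 45.1 FPKM in WT in sucrose and 39.2 to 40.9 FPKM in WT in glucose. WT in glucose was below the other 3 groups. Ada3-3KR was above WT in glucose by 0.26 ± 0.04 (adjusted p = 7.2e-05), and the difference in sucrose was 0.05 ± 0.04 (adjusted p = 0.302). The responses to sucrose differed by -0.21 ± 0.06 (adjusted p = 0.0099), or -0.15 after quantile normalization (adjusted p = 0.0587). In Ada3-3KR the change with sucrose was -0.08 ± 0.04 (adjusted p = 0.106), or -0.15 rescaled (adjusted p = 0.00729). The WT rise of 0.13 ± 0.04 (adjusted p = 0.0186) became 0.01 rescaled. It was 0.11 without WT in glucose replicate 2 (adjusted p = 0.0628) or WT in sucrose replicate 1 (adjusted p = 0.0689).

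SNF4, the activating gamma subunit, was likewise lowest in WT in glucose. It had 88.3 to 94.2 FPKM in Ada3-3KR in sucrose, 93.8 to 97.1 FPKM in Ada3-3KR in glucose, 91.3 to 99.0 FPKM in WT in sucrose and 82.0 to 87.6 FPKM in WT in glucose. The difference between Ada3-3KR and WT in glucose was 0.17 ± 0.04 (adjusted p = 0.00315), and the responses differed by -0.23 ± 0.06 (adjusted p = 0.00762). After quantile normalization these were 0.10 (adjusted p = 0.0682) and -0.15 (adjusted p = 0.0746). The WT rise with sucrose of 0.17 ± 0.04 (adjusted p = 0.00488) became 0.04 rescaled (adjusted p = 0.443). In Ada3-3KR the change was -0.06 ± 0.04 (adjusted p = 0.253), or -0.13 rescaled (adjusted p = 0.021).

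In the bromodomain set SNF1 had 47.4 to 56.9 FPKM and SNF4 78.9 to 102 FPKM over all libraries. SNF1 was lower than in WT in glucose, at -0.17 ± 0.05 in Spt7m (adjusted p = 0.00937) and -0.13 ± 0.05 in Gcn5m (adjusted p = 0.0442), which became -0.09 and -0.05 rescaled, neither called. The Gcn5m call was also lost without Gcn5m replicate 1 or 3 or any 1 of the WT replicates (-0.11 to -0.14). SNF1 rose with sucrose in Spt7m by 0.15 ± 0.05 (adjusted p = 0.0171) but had -0.12 rescaled (adjusted p = 0.041), and 0.13 without Spt7m in glucose replicate 3 (adjusted p = 0.0545). SNF4 rose with sucrose in WT by 0.18 ± 0.05 (adjusted p = 0.00462), with -0.07 rescaled. SNF4 was above WT in Gcn5m in glucose by 0.12 ± 0.05 (adjusted p = 0.0447), which was 0.05 without WT replicate 2 (adjusted p = 0.315) and was also lost without any 1 Gcn5m replicate (0.12 to 0.13, adjusted p of 0.061 to 0.0945). A further 5 values of this set crossed the threshold when a single library was left out. These were SNF1 in Gcn5m against WT in sucrose (-0.13 without Gcn5m replicate 1 or WT replicate 3), SNF4 with sucrose in Spt7m (0.13 without Spt7m in sucrose replicate 2), the SNF4 response of Gcn5m minus WT (-0.19 without WT in glucose replicate 1), GLC7 in Spt7m against WT in sucrose (-0.17 without WT replicate 2) and MIG3 with sucrose in Gcn5m (0.24 without Gcn5m in sucrose replicate 2).

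Of the phosphatase pair, REG1, which targets Glc7 to Snf1, had 46.6 to 55.7 FPKM in the Ada3 set and 47.9 to 59.5 FPKM in the bromodomain set. Without Gcn5m in glucose replicate 3 it was called for Gcn5m against WT in glucose (-0.15, adjusted p = 0.0263) and with sucrose in Gcn5m (0.13, adjusted p = 0.0424), and without Spt7m in sucrose replicate 1 with sucrose in Spt7m (0.15, adjusted p = 0.0284). With all libraries its only call was a difference of 0.14 ± 0.04 between Ada3-3KR and WT in glucose (adjusted p = 0.0164). That became 0.09 rescaled (adjusted p = 0.0591), 0.10 without Ada3-3KR replicate 3 (adjusted p = 0.0807) and 0.12 without WT replicate 1 (adjusted p = 0.0611). GLC7 was called in no comparison of the Ada3 set, though Ada3-3KR against WT in glucose had 0.14 (adjusted p = 0.0167) without Ada3-3KR replicate 1. In the other set it had 252 to 264 FPKM in Gcn5m, 244 to 252 FPKM in Spt7m and 256 to 295 FPKM in WT in sucrose, against 211 to 232, 204 to 216 and 227 to 265 FPKM in glucose. The rises of 0.22 ± 0.06 in Gcn5m (adjusted p = 0.00201) and 0.23 ± 0.06 in Spt7m (adjusted p = 0.00138) both became -0.04 rescaled, so the direction flipped. In WT the change was 0.12 ± 0.06 (adjusted p = 0.0735), called without WT in glucose replicate 3 (0.17, adjusted p = 0.0267) or WT in sucrose replicate 2 (0.16, adjusted p = 0.0338) and -0.14 rescaled. Below WT in glucose, Spt7m had -0.24 ± 0.06 (adjusted p = 0.00207; -0.14 with adjusted p = 0.0517 after quantile normalization) and Gcn5m -0.18 ± 0.06 (adjusted p = 0.0113; -0.10 with adjusted p = 0.128 rescaled). The Gcn5m call was also lost without Gcn5m replicate 2 (-0.15, adjusted p = 0.0512) or WT replicate 3 (-0.13, adjusted p = 0.0706).

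The regulators around these genes were read as lists of known pathway members, and each count stands against that over all genes. With sucrose, 1920 genes rose and 1034 fell in Ada3-3KR and 1906 and 809 in its WT, and 3048 and 1275 in Gcn5m, 3013 and 1424 in Spt7m, and 2975 and 919 in WT. Rescaled, these were 1431 and 1534 in Ada3-3KR and 1047 and 1765 in its WT, and 1741 and 2310 in Gcn5m, 1876 and 2427 in Spt7m, and 1330 and 2213 in WT. SAK1, TOS3 and ELM1 encode the 3 kinases that phosphorylate Snf1. With sucrose 1 rose and 0 fell in Ada3-3KR, against 0 and 1 in WT, and 2 rose and 1 fell in each strain of the bromodomain set. Rescaled, 0 rose and 1 fell in Gcn5m and in Spt7m, and 0 and 2 in their WT. TOS3 changed with sucrose by -0.56 ± 0.09 in Gcn5m (adjusted p = 3.56e-05), -0.73 ± 0.09 in Spt7m (adjusted p = 1.44e-06) and -0.66 ± 0.09 in WT (adjusted p = 8.45e-06). In the Ada3 set its change was -0.02 ± 0.09 in Ada3-3KR (adjusted p = 0.901, and -0.22 with adjusted p = 0.0435 after quantile normalization) and -0.59 ± 0.09 in WT (adjusted p = 0.000181), and these differed by 0.57 ± 0.13 (adjusted p = 0.00383). In glucose TOS3 was lower in Ada3-3KR than in WT, at -0.96 ± 0.09 (adjusted p = 1.02e-06). SAK1 was lower than in WT in glucose, at -0.33 ± 0.05 in Gcn5m (adjusted p = 2.42e-05) and -0.29 ± 0.05 in Spt7m (adjusted p = 0.000121). ELM1 was above WT in Ada3-3KR in sucrose by 0.37 ± 0.09 (adjusted p = 0.00453).

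Of 15 other regulators of Glc7, 3 rose and 8 fell with sucrose in Ada3-3KR (median -0.23), against 7 and 1 in WT (median 0.12). The median over all genes was 0.06 in Ada3-3KR and 0.08 in WT. The WT count became 5 higher and 4 lower on rescaling. With sucrose, 10 rose and 1 fell in Gcn5m, 13 and 1 in Spt7m, and 8 and 2 in WT, with medians of 0.36, 0.44 and 0.15; rescaled, these were 6 and 5, 9 and 2, and 4 and 6. REG2, the paralog of REG1, rose by 0.99 ± 0.08 in Ada3-3KR (adjusted p = 2.17e-07) and 2.00 ± 0.08 in WT (adjusted p = 1.44e-10), and by 2.68 ± 0.09 in Gcn5m, 3.22 ± 0.09 in Spt7m and 2.59 ± 0.09 in their WT (largest adjusted p = 1.91e-14). GAC1, a glycogen-targeting subunit, was below WT in Ada3-3KR in sucrose, at -1.62 ± 0.04 (adjusted p = 3.8e-12) and above WT in Gcn5m by 0.66 ± 0.05 (adjusted p = 2.27e-09) and in Spt7m by 0.66 ± 0.05 (adjusted p = 2.56e-09). GIP2 changed with sucrose by -0.33 ± 0.04 in Ada3-3KR (adjusted p = 3.42e-05) and 0.43 ± 0.04 in WT (adjusted p = 3.17e-06).

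Of 5 partner genes in repression, HXK2 included, 2 rose and 2 fell with sucrose in Ada3-3KR (median -0.04), against 2 and 0 in WT (median 0.15). In the bromodomain set 3 rose and 1 fell in Gcn5m, 2 and 1 in Spt7m, and 1 and 2 in WT. Rescaled, 0 rose and 2 fell in Gcn5m, 1 and 3 in Spt7m, and 1 and 4 in WT. The corepressor genes CYC8 and TUP1 had 0.11 ± 0.05 (adjusted p = 0.0958) and 0.06 ± 0.04 (adjusted p = 0.22) with sucrose in the WT of the Ada3 set. TUP1 was above WT in Ada3-3KR in sucrose by 0.17 ± 0.04 (adjusted p = 0.00207). Its response to sucrose in Gcn5m exceeded that of WT by 0.42 ± 0.12 (adjusted p = 0.0102). CYC8, uncalled with sucrose in Gcn5m and Spt7m before rescaling, had -0.32 (adjusted p = 0.000673) and -0.40 (adjusted p = 6.41e-05) rescaled. NRG1 and NRG2 encode repressors that Snf1 also controls, and were lower in Ada3-3KR than in WT in sucrose, at -1.22 ± 0.06 (adjusted p = 2.1e-09) and -1.61 ± 0.04 (adjusted p = 2.31e-12). NRG2 changed with sucrose by -1.80 ± 0.09 in Gcn5m (adjusted p = 7.86e-12), -1.58 ± 0.09 in Spt7m (adjusted p = 4.03e-11) and -0.78 ± 0.09 in WT (adjusted p = 1.29e-06). HXK2, whose hexokinase takes part in Mig1 repression, rose by 0.24 ± 0.05 in Gcn5m (adjusted p = 0.000137), 0.44 ± 0.05 in Spt7m (adjusted p = 1.02e-07) and 1.00 ± 0.05 in WT (adjusted p = 1.99e-12) before rescaling. The Gcn5m value became -0.02 rescaled (adjusted p = 0.678), so its direction flipped and its call was lost.

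In the branch that senses glucose through Snf3 and Rgt2, 8 genes were read. With sucrose 2 rose and 3 fell in Ada3-3KR (all genes 1920 and 1034), against 3 and 1 in WT (all genes 1906 and 809), and 6 and 1 in Gcn5m (all genes 3048 and 1275), 5 and 2 in Spt7m, and 4 and 1 in their WT. Rescaled, these were 1 and 3 in Ada3-3KR, 2 and 2 in its WT, 2 and 2 in Gcn5m, 4 and 2 in Spt7m, and 2 and 3 in WT. STD1, a regulator of that branch, changed by -0.53 ± 0.07 in Ada3-3KR (adjusted p = 3.49e-05) and -0.93 ± 0.07 in WT (adjusted p = 1.65e-07), and by -1.28 ± 0.09 in Gcn5m, -1.31 ± 0.09 in Spt7m and -0.81 ± 0.09 in their WT (largest adjusted p = 2.09e-07). Its paralog MTH1 fell in Ada3-3KR (-0.74 ± 0.05, adjusted p = 2.85e-08) and rose by 0.67 ± 0.05 in WT (adjusted p = 8.18e-08). SNF3, the high-affinity sensor, rose by 1.04 ± 0.07 in Gcn5m, 1.44 ± 0.07 in Spt7m and 0.68 ± 0.07 in WT (largest adjusted p = 9.52e-08).

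Downstream, 9 genes encode activators tied to Snf1. With sucrose, 2 rose and 5 fell in Ada3-3KR (median -0.21), against 7 and 1 in WT (median 0.47), and the difference between the responses was negative for 7 and positive for 0 (median -0.62). Over all genes that difference was negative for 1262 and positive for 1002 (median -0.03), and for 1026 and 1313 rescaled. HAP4, a respiratory activator, was below WT in Ada3-3KR in sucrose, at -1.61 ± 0.04 (adjusted p = 1.19e-12) and above WT in Gcn5m by 1.24 ± 0.03 (adjusted p = 1.49e-15) and in Spt7m by 0.97 ± 0.03 (adjusted p = 6.35e-14). CAT8, a gluconeogenic activator that Mig1 represses, changed by -0.44 ± 0.07 in Ada3-3KR (adjusted p = 0.000207) and 0.69 ± 0.07 in WT (adjusted p = 4.73e-06). ADR1 rose with sucrose by 2.75 ± 0.04 in Gcn5m, 2.87 ± 0.04 in Spt7m and 1.96 ± 0.04 in WT (largest adjusted p = 2.87e-17). Here 8 of 9 rose and 1 fell in Gcn5m (median 0.52), 7 and 1 in Spt7m (median 0.89), and 5 and 2 in WT (median 0.43); over all genes 3048 rose and 1275 fell in Gcn5m, 3013 and 1424 in Spt7m, and 2975 and 919 in WT. Rescaled, the list had 2 and 5 in Ada3-3KR and 6 and 2 in its WT, and 5 and 1 in Gcn5m, 7 and 2 in Spt7m, and 5 and 3 in WT.

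Last, 18 genes known as targets of Mig1 repression were read, of which CAT8, REG2, MTH1 and SNF3 also stand in the lists above. With sucrose 11 rose and 6 fell in Ada3-3KR (median 0.27), against 18 and 0 in WT (median 0.83). The difference between the responses was negative for 16 and positive for 0 (median -0.90). Over all genes it was negative for 1262 and positive for 1002 (median -0.03), or for 1026 and 1313 rescaled. With sucrose 17 rose and 0 fell in Gcn5m (median 1.13), 18 and 0 in Spt7m (median 1.59), and 18 and 0 in WT (median 1.33). Rescaled, these were 11 and 6 in Ada3-3KR and 17 and 0 in its WT, and 16 and 1 in Gcn5m, 17 and 0 in Spt7m, and 16 and 0 in WT. The response of Gcn5m minus that of WT was positive for 7 targets and negative for 5 (median 0.10). For Spt7m it was positive for 11 and negative for 1 (median 0.47). Over all genes it was positive for 1220 and negative for 1211 in Gcn5m, and for 1398 and 1375 in Spt7m. JEN1, the lactate permease gene, rose by 5.63 ± 0.06 in Gcn5m, 5.95 ± 0.06 in Spt7m and 4.96 ± 0.06 in WT (largest adjusted p = 1.55e-20). SUC2 rose by 0.97 ± 0.05 in Ada3-3KR (adjusted p = 1.1e-09) and 3.04 ± 0.05 in WT (adjusted p = 2e-14). In the bromodomain set its largest change in any comparison was the WT rise with sucrose, 3.75 ± 0.05 (adjusted p = 2.41e-19). Neither bromodomain mutant exceeded that rise. MIG1 RNA and at least 17 of its 18 listed targets (16 rescaled) were both higher with sucrose in Gcn5m, Spt7m and both WT groups. In Ada3-3KR, MIG1 changed by -0.38 with sucrose, while 11 of the targets rose and 6 fell. Whether MIG1 RNA bears on these targets was not tested. Of the 5841 genes tested in the bromodomain set, 3048 rose in Gcn5m, 3013 in Spt7m and 2975 in WT, or 1741, 1876 and 1330 rescaled; of the 5830 in the Ada3 set, 1906 rose in WT, or 1047 rescaled.

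The 3 genes whose group means ran closest to each repressor over the 10 groups, relative to WT in glucose of the set, were found among 5419 genes with at least 5 FPKM on average in each set. For MIG1 they were PTR2, RTC2 and COS111, with root mean square log2 differences of 0.192, 0.199 and 0.216. MIG2 had MFG1, PUF2 and COX19 at 0.063, 0.108 and 0.109. MIG3 had YPR014C, TAX4 and YCL011C-A at 0.201, 0.201 and 0.209. The groups of a set share their WT libraries in this measure, and it is a description of likeness only. WT in glucose of each set is the reference, so it adds no difference for any gene and lowers the averages over the 10 groups.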

How the data were processed

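The authors deposited 2 tables of FPKM values per gene, which are the only measurements used. Tools listed in the submitters' processing notes are cutadapt (1.16), HISAT2 (2.1.0) and StringTie (1.3.3b), on build R64; their settings are not given in the sources used here. RNA was taken with Trizol and 1 µg went into a TruSeq library, per the labels' protocols.

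Values were analysed as log2(FPKM + 1) after a filter that kept genes averaging 1 FPKM or more over a set. With limma 3.58.1 (R 4.3.3, variance trend), each set was fitted with a mean per group, all groups sharing the spread, and p-values were adjusted by Benjamini-Hochberg over all genes of a comparison. The fit was tested on simulated data. No per-sample column was left unused. Depth is unknown, so no counting interval is given. Shares and ratios were compared by exact permutation in SciPy 1.17.1. Upstream windows came from the RefSeq genome of R64, the same build, and near-identical copies were sought with BLAST 2.17.0.

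The members and the gene lists were chosen with earlier results of these data known. All members are named; of each list, up to 4 called genes with the largest change in a set were eligible, plus CYC8, named after its values were seen, and for each Mig gene its 3 nearest genes. Alternatives were another pseudocount (0.1), no filter, quantile normalization, a common median, a replicate block, a fit to the compared groups only, and leaving out each library.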

Additional observations from a re-analysis of the deposited data

Results flagged for a closer look

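For 10 results the response to sucrose in a mutant differed from that of its WT by limma's test of the difference itself, given as mutant minus WT on the log2 scale. All 10 members were tested in each mutant. Of all genes tested, 38.8% differed in this way in Ada3-3KR, 41.6% in Gcn5m and 47.5% in Spt7m. In the Ada3 set, Ada3-3KR minus WT was -0.73 for MIG1, -0.44 for SIP2, -0.23 for SNF4 and -0.21 for SNF1. The calls of SNF4 and SNF1 were lost after quantile normalization (limma adjusted p = 0.0746 and 0.0587). In the bromodomain set the value for MIG1 was 0.49 in Gcn5m and 0.45 in Spt7m, and for GAL83 it was -0.25 in Gcn5m and -0.26 in Spt7m. Spt7m also differed from WT for MIG2 (0.32) and SIP1 (0.26). The calls of MIG2 in Spt7m and of GAL83 in Gcn5m were lost on leaving out any of several single libraries. In this set URA3 had 7079 to 11463 FPKM in Spt7m and 223 to 444 FPKM in Gcn5m, against at most 2.3 FPKM in WT, and its part in these differences was not tested.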

How the results depend on the processing

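Another pseudocount and no filter left all 160 member values on their side of the threshold. Scaling mattered most. With a common median, 8 of 10 members were called with sucrose in Ada3-3KR, 8 in Gcn5m and 8 in the WT of the bromodomain set. Of the 5830 genes tested in the Ada3 set, 1431 were then called higher and 1534 lower in Ada3-3KR. Of the 5841 in the bromodomain set, 1741 and 2310 were called in Gcn5m, and 1330 and 2213 in WT. Quantile normalization gave 6 members in Ada3-3KR and 7 in that WT, 2 for the difference between the Ada3-3KR and WT responses, and 1 for Spt7m against WT in glucose. Over all genes it called 1452 higher and 1455 lower in Ada3-3KR, and 1515 and 1849 in that WT. The all-gene counts were 1230 and 1091 for the difference between responses, and 1338 and 1448 for Spt7m against WT in glucose. With only the compared groups fitted, Gcn5m against WT in glucose called 3, and Gcn5m against Spt7m called 2 in glucose and 0 in sucrose. The share of all genes called in this last fit is not given here.

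Among values called in either setting, direction reversed in sucrose against glucose in the bromodomain set, given here for the common median and then quantile normalization. SNF1 had -0.21 and -0.21 in Gcn5m, -0.12 and -0.13 in Spt7m, and -0.25 and -0.23 in WT. SNF4 had -0.22 and -0.23 in Gcn5m, -0.16 and -0.19 in Spt7m, and -0.07 and -0.05 in WT. REG1 had -0.18 and -0.18 in Gcn5m, -0.15 and -0.15 in Spt7m, and -0.17 and -0.14 in WT. GLC7 had -0.04 and -0.03 in Gcn5m, -0.04 and -0.07 in Spt7m, and -0.14 in WT with the common median. MIG2 had -0.20 and -0.19 in Gcn5m, and -0.02 and -0.02 in Spt7m. SIP1 had -0.03 and -0.01 in WT. The shift of the median of all genes accompanies these; its cause was not tested.

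Leaving out each library gave 3 to 5 calls for Gcn5m against WT in glucose (3 without Gcn5m replicate 2 or 3 or WT replicate 2 or 3), 0 to 1 for Gcn5m against Spt7m in glucose (0 without Gcn5m replicate 2 or 3 or Spt7m replicate 3), 0 to 1 for the same in sucrose (0 without Gcn5m replicate 1 or Spt7m replicate 2 or 3), and 1 to 2 for the difference between the Gcn5m and WT responses (1 without Gcn5m replicate 2 in glucose or 3 in sucrose, or WT replicate 2 in glucose or 1 or 2 in sucrose). The other ranges were within 1.5 times the main counts.

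Same-numbered libraries of different groups deviated together at r = -0.25 to 0.41 in the Ada3 set, with 11 of 18 pairs above 0.1. In the bromodomain set r was -0.43 to 0.34, with 13 of 45 pairs above 0.1. Pairs with unequal numbers had -0.41 to 0.54 and -0.42 to 0.41. These ranges overlap and do not settle whether equal numbers mark a pairing. A replicate block changed no count by more than 1.5 times and no called member value; it added GLC7 in Spt7m against WT in sucrose (-0.13, adjusted p = 0.0297) and with sucrose in WT (0.12, adjusted p = 0.0397). The same alternatives were added for the list genes after seeing the data.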
